A study of Mus musculus with 20 samples.

Results

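Liver genes that make, conjugate, carry or control bile acids were followed across 4 groups of mice by RNA sequencing. The members were chosen by symbol: Cyp7a1, Cyp8b1, Cyp27a1, Cyp7b1, Slc10a1, Abcb11, Abcb4, Baat, Nr0b2 and Slc51b, which are 10 of the 46095 gene symbols in the counts table. The livers came from wild-type (WT) mice and from mice with a liver-specific knockout of Pck1 (KO), the gene of the cytosolic phosphoenolpyruvate carboxykinase of gluconeogenesis. Each genotype was kept on chow or on the NASH diet, which brings on fatty liver with inflammation (non-alcoholic steatohepatitis), and the 4 groups are WT chow, WT NASH, KO chow and KO NASH. Feeding went on for 24 weeks, livers were taken at an age of 31 to 33 weeks, and each group has 5 libraries. The labels give no sex, Cre driver, litter or time of day of collection, and they do not say whether animals were pooled. Where libraries of a group are not separate animals, the p-values measure only the spread between these libraries.

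Bile acids are made from cholesterol in hepatocytes. The classic pathway opens with cholesterol 7-alpha-hydroxylase (Cyp7a1), and sterol 12-alpha-hydroxylase (Cyp8b1) steers its product towards cholic acid. An alternative pathway uses sterol 27-hydroxylase (Cyp27a1) and oxysterol 7-alpha-hydroxylase (Cyp7b1). Baat then joins the acids to taurine or glycine, Abcb11 pumps the conjugates into the bile canaliculus, Abcb4 moves phosphatidylcholine there, and Slc10a1 takes returning bile acids up from the blood. The bile acid receptor FXR (Nr1h4) is known to induce Nr0b2, which encodes the repressor SHP, as well as Abcb11 and Slc51b, a subunit of the basolateral exporter.

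Library totals ranged from 9958935 to 20601955 counts. The sex of the mice was read from Y-linked genes: 13 libraries were read as male and 7 as female. All 5 WT chow livers were male, whereas WT NASH had 1 male (replicate 4), KO chow 3 males (replicates 1, 2 and 4) and KO NASH 4 males (all but replicate 2). CPM is the count divided by the TMM-scaled library size, on the usual CPM scale. In 6 libraries the counts fell with gene length relative to the mean of all 20 libraries. The slope on log2 exonic length was fitted to each gene's deviation from its mean log2 CPM, here without TMM scaling. It was -0.34 to -0.25 in these 6, against 0.01 to 0.19 in the other 14. WT chow contributed 3 of these (replicates 3 to 5), KO chow 2 (replicates 4 and 5) and WT NASH 1 (replicate 4). WT NASH replicate 4 was therefore the only male of its group, its only library of negative slope and the shallowest of all. Sex and slope are not balanced over the groups, and within the WT groups diet and sex can be told apart only through that library. Fits with sex as a term use 1 shared sex difference for all groups, which also draws on the KO livers. In males alone, comparisons with WT NASH rest on that 1 library and take its spread from the other groups. KO NASH replicates 1 and 5 lay close together, with 318 and 329 CPM of Cyp8b1, 241 and 230.3 CPM of Abcb11 and TMM factors of 1.304 and 1.319. Their Nr0b2 was 3.16 and 4.26 CPM. Whether they are separate livers was not tested, and an alternative fit summed them as 1 library. Pck1 checked the genotype labels: it had a log2 fold change of -2.51 (SE 0.291, adjusted p = 0.00011 by edgeR) on chow and of -2.36 (SE 0.289, adjusted p = 6.13e-05 by edgeR) on the NASH diet, and KO and WT libraries did not overlap on either diet. The 6 hepatocyte markers summed to 51160 to 135800 CPM over all libraries. Their range was 74000 to 135800 CPM in WT chow and 51160 to 119900 CPM in KO chow. None was called between these groups by edgeR (2 at an unadjusted p under 0.05, 0 by DESeq2 and 4 by limma voom). Of all 14440 tested genes 2795 had such a p, and DESeq2 called 8.07% and limma voom 40.4%. On the NASH diet the sums of KO livers, at 59520 to 68070 CPM, lay below those of WT livers, at 76210 to 99340 CPM. Of the 6 markers 1 fell, the serine protease inhibitor Serpina3k (log2 fold change -2.03, adjusted p = 0.0477 by edgeR), and the median log2 fold change of the 6 was -0.17. Alb made up most of the sum, and its ranges overlapped (37080 to 80320 CPM in WT NASH, 42290 to 54780 CPM in KO NASH). Mean Cps1 was higher in KO NASH (2193 against 1658 CPM), and the means of the others were lower. The Kupffer cell markers summed to 212 to 309 CPM in KO NASH and 311 to 709 CPM in WT NASH, and 1 of 5 fell (Timd4), while 2 of 5 endothelial markers rose (Lyve1 and Kdr). Of all genes, 4.74% were called lower and 4.9% higher in this comparison. The part of these shifts in the member values of KO NASH against WT NASH was not tested. In bulk liver, fewer hepatocytes and less RNA per hepatocyte cannot be told apart.

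Of the 10 members, 9 passed the filter on low counts and were tested. Slc51b did not pass. In KO chow against WT chow 3 of the 9 fell (Cyp27a1, Abcb11 and Nr0b2) and none rose, where 2.49% of all 14440 tested genes were called lower and 3.03% higher. With the NASH diet the same 3 genes fell in KO against WT and Cyp8b1 rose, against a background of 4.74% lower and 4.9% higher. Between the diets 1 member was called in each genotype. In WT liver Cyp8b1 was lower on the NASH diet, with 3.24% of all genes lower and 2.69% higher. In KO liver Abcb11 was higher, with 1.77% of all genes higher and 1.52% lower. With sex as a term 0 members were called in WT (1.11% of all genes), and the KO call held in 12 of 33 alternatives. The median log2 fold change of the 9 members was -1.26 for the knockout on chow and -0.77 on the NASH diet, and the median of all genes was 0 in both. For the diet it was -0.49 in WT and -0.06 in KO, against 0.01 and -0.02 over all genes. The comparisons share groups with each other, so their values are given side by side.

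**Figure D1:**
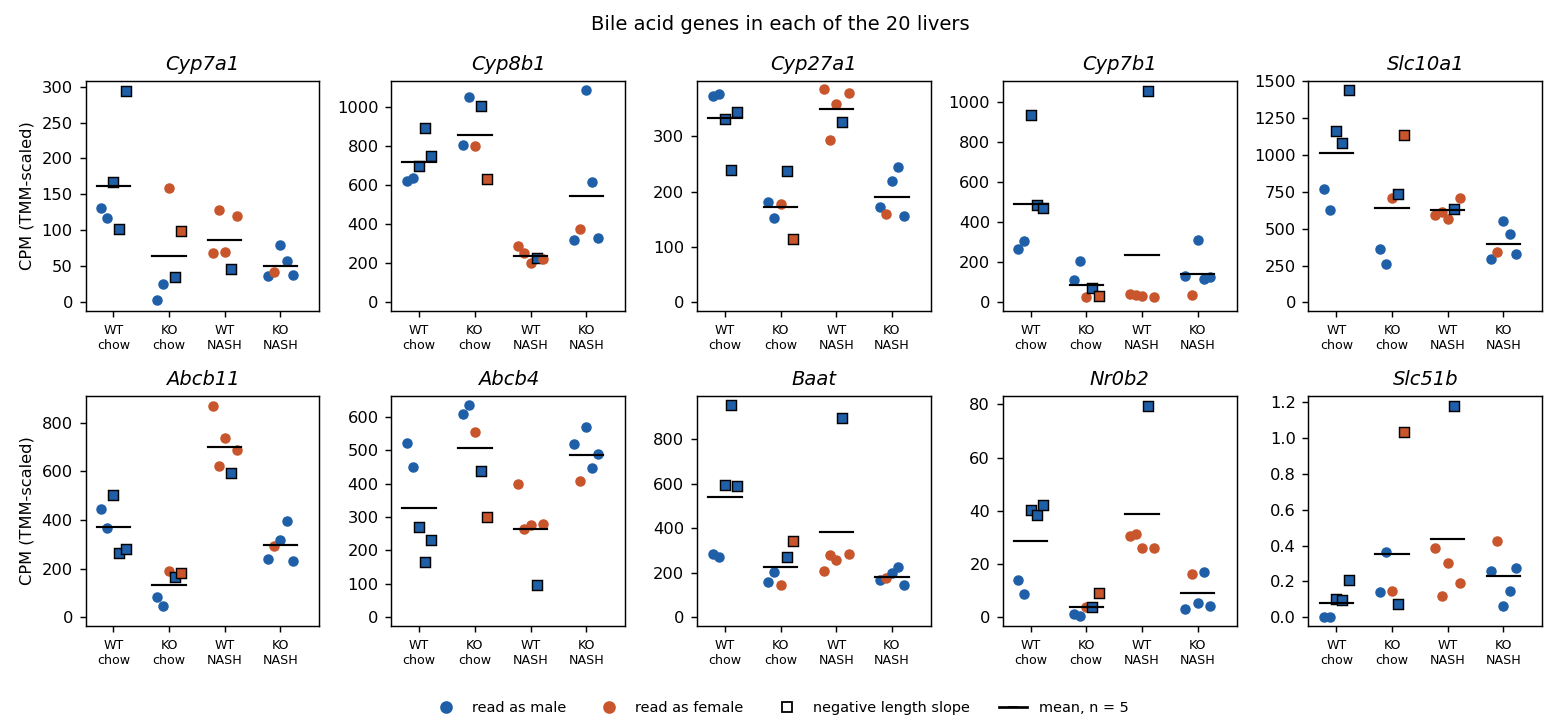
TMM-scaled CPM (vertical axis, each gene on its own scale) of the 10 members in the 5 libraries of each group. Points are libraries, colours the sex read from the counts, squares the libraries of negative length slope and lines the group means. Cyp27a1 and Abcb11 lie lower in KO than in WT on both diets without overlap, and WT NASH replicate 4 stands far above its group for Cyp7b1, Baat and Nr0b2.

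The start regions of 3 of the called members, those with a match, show where binding motifs of bile acid regulators can be read in the genome. The 250 bases before the RefSeq start (build GRCm38.p6, gene strand, 5′ to 3′) are printed for Abcb11 (chr2:69342617-69342866, minus strand), Cyp8b1 (chr9:121916306-121916555, minus strand) and Nr0b2 (chr4:133553126-133553375, plus strand). Capitals mark matches to 3 motifs searched on both strands: the inverted repeat of FXR (AGGTCANTGACCT, up to 2 mismatches), the HNF4 motif (CAAAGTCCA, up to 1 mismatch) and the motif of LRH-1, encoded by Nr5a2 (CAAGGNC, exact).
Abcb11: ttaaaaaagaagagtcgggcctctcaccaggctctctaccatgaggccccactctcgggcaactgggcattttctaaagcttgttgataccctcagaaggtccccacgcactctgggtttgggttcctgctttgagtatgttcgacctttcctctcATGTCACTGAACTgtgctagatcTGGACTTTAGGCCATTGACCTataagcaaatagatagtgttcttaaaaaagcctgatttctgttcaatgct
Cyp8b1: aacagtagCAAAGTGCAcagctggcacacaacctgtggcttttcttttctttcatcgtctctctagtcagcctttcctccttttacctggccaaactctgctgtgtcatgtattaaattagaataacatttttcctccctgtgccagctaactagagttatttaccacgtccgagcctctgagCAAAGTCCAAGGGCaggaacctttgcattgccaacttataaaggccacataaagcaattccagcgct
Nr0b2: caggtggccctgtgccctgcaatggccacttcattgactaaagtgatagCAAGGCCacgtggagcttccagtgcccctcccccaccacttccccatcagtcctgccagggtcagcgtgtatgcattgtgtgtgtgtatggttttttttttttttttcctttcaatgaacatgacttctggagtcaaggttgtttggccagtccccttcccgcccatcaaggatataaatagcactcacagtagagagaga
Abcb11 holds a match to the FXR repeat with 1 mismatch at -63 to -51 (AGGCCATTGACCT), counting back from the start, and a second with 2 mismatches at -94 to -82 (ATGTCACTGAACT). An HNF4 match with 1 mismatch on the other strand, at -71 to -63, shares its last base with the first repeat, so the capitals run together. Cyp8b1 holds an exact HNF4 match at -67 to -59 that overlaps an LRH-1 match at -60 to -54, and an HNF4 match with 1 mismatch at -242 to -234. Nr0b2 holds an LRH-1 match at -201 to -195. Over all 32851 RefSeq windows of this length, 0.959% hold the FXR repeat, 7.05% the HNF4 motif and 15.0% the LRH-1 motif at these limits. Sequences were found for 7 of the 10 members. Those of Cyp27a1, which was also called, and of Abcb4 and Slc51b held no match to any of the 3 motifs. Slc10a1 held only an HNF4 match with 1 mismatch, and the Nr0b2 window held no FXR repeat at these limits. The matches are descriptions of these letters only.

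The classic pathway was described first. Cyp8b1 (chr9:121914356-121916305, minus strand, GRCm38) was the only member called for the diet in WT liver. Its CPM in WT chow replicates 1 to 5 was 623, 636, 699, 895 and 753. In WT NASH it was 287, 252, 203, 228 and 224. All 5 WT NASH livers lay below all 5 WT chow livers, and the single WT NASH male was in the middle of its group. The log2 fold change was -1.59 (SE 0.292, adjusted p = 0.00311 by edgeR), a level 3.02-fold lower on the NASH diet. With sex as a term the value was -1.31 and was not called, and it was also not called in males alone (-1.68, with 1 WT NASH male) or without the 6 libraries of negative slope (-1.37). The adjusted p over all alternatives ran from 3.57e-06 to 0.251.

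In the knockout, KO chow livers had 809, 1053, 802, 1006 and 631 CPM of Cyp8b1, and KO NASH livers 318, 377, 1091, 618 and 329 CPM. Every KO NASH liver lay above every WT NASH liver, and replicate 3 stood highest of all 20. The knockout on the NASH diet had 2.29-fold more Cyp8b1 (log2 fold change 1.19, SE 0.289, adjusted p = 0.0145 by edgeR). On chow the difference was 0.25 (SE 0.285, 95% interval -0.34 to 0.85, adjusted p = 0.666 by edgeR). Without KO NASH replicate 3 the NASH value was 0.78 and was not called (adjusted p = 0.0504 by edgeR, over a range of 0.00114 to 0.147), and it was 0.96 with sex as a term, 0.98 with sex and slope and 1.4 in males alone, also not called. Within KO liver, the NASH diet value was -0.65 (SE 0.286, adjusted p = 0.186 by edgeR). It passed only without KO NASH replicate 3 (-1.07).

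Cyp7a1 (chr4:6265612-6275633, minus strand, GRCm38), which catalyses the rate-limiting step of the classic pathway, varied more from liver to liver. WT chow livers had 131, 117, 167, 102 and 293 CPM, and WT NASH livers 68.6, 128, 69.4, 46.5 and 119 CPM. KO chow livers had 3.10, 25.4, 159, 35.4 and 99.8 CPM, and KO NASH livers 36.7, 41.6, 79.5, 57.5 and 38.0 CPM. The groups overlapped in all 4 comparisons, and in KO chow the 3 males (3.10 to 35.4 CPM) lay below both females (99.8 and 159 CPM). No comparison passed: the log2 fold change was -1.33 (SE 0.605, adjusted p = 0.231 by edgeR) for the knockout on chow and -0.77 (SE 0.599, adjusted p = 0.45 by edgeR) on the NASH diet, -0.91 (SE 0.6, adjusted p = 0.381 by edgeR) for the diet in WT and -0.35 (SE 0.596, adjusted p = 0.742 by edgeR) in KO. The chow value was called in 4 of 33 alternatives: -2.38 with sex as a term, -2.28 with sex and slope, -2.92 in males alone and -3.38 with limma voom. The sign on the NASH diet turned with sex as a term, to 0.31, and was not called.

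Cyp7a1 is known to follow the daily rhythm, so the clock genes are given beside it. For Arntl, a core clock activator, WT chow livers had 1.59 to 4.80 CPM, WT NASH livers 12.8 to 28.1 CPM and KO NASH livers 5.46 to 11.5 CPM. The diet raised it in WT by 2.73 on the log2 scale (SE 0.337, adjusted p = 9.4e-05 by edgeR), and with NASH feeding the knockout value was -1.42 (SE 0.316, adjusted p = 0.0088 by edgeR). Of 12 clock genes tested, Arntl and Npas2 rose in WT NASH against WT chow, where 2.69% of all genes were called higher. In KO NASH against WT NASH Dbp and Ciart rose and Arntl fell, where 4.9% of all genes were called higher and 4.74% lower. The calls of Dbp (2.25) and Ciart (1.83) were lost with sex as a term and that of Npas2 (3.27) in males alone. None of the 12 was called between KO chow and WT chow by edgeR. Before adjustment 1 had a p under 0.05 (2795 of all 14440 genes), and DESeq2 and limma voom each called 1, with 8.07% and 40.4% of all genes called. In WT NASH against WT chow these counts were 7 (3191 genes), 5 (8.76%) and 8 (40.6%). In KO NASH against WT NASH they were 7 (3701 genes), 6 (12.9%) and 7 (23.8%). In KO NASH against KO chow edgeR called 0, and they were 5 (3199 genes), 3 (8.18%) and 2 (12.7%). The time of collection is not given in the sources used here, and the part of the clock in the levels of the members was not tested.

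**Figure D2:**
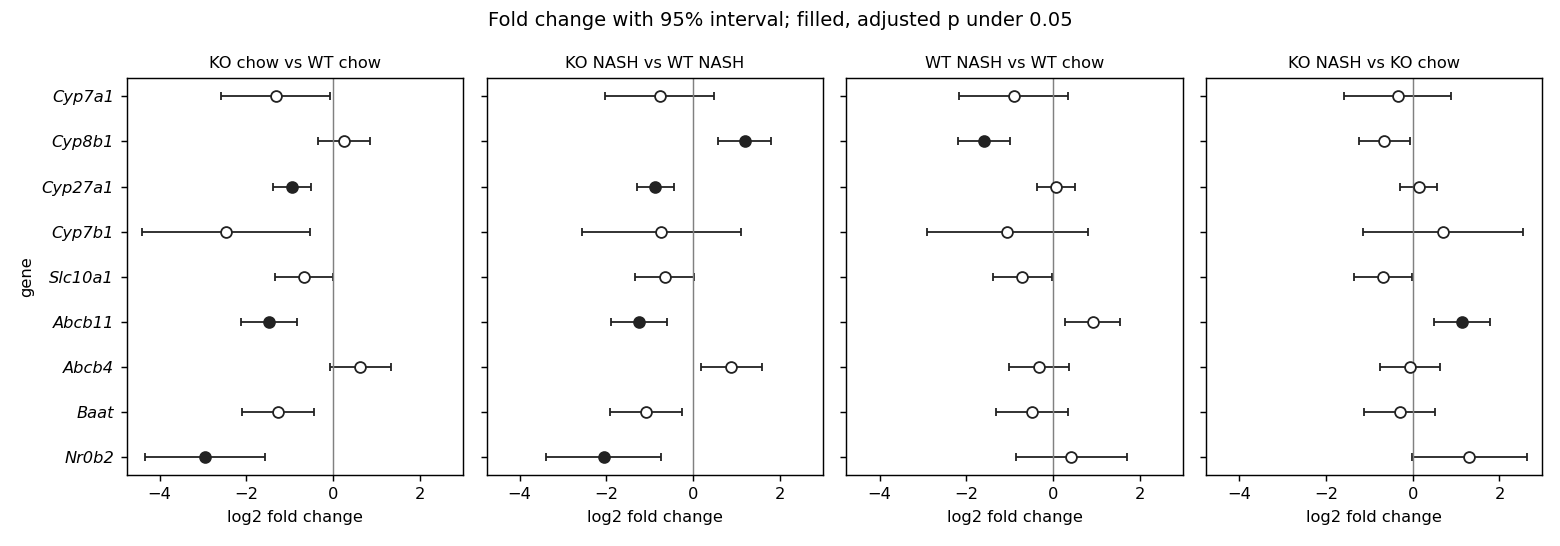
Log2 fold change (horizontal axis) of the 9 tested members (rows) in 4 comparisons, with 95% intervals. Filled points had an edgeR adjusted p under 0.05: Cyp27a1, Abcb11 and Nr0b2 fell in the knockout on both diets, Cyp8b1 rose in the knockout on the NASH diet and fell with the diet in WT, and Abcb11 rose with the diet in KO.

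The balance within the classic pathway was read as the ratio of Cyp8b1 to Cyp7a1 counts in each liver, which does not depend on library scaling. The log2 ratio was 2.25 ± 0.64 (SD, n = 5) in WT chow and 1.56 ± 0.62 in WT NASH. It was 4.64 ± 2.3 in KO chow and 3.32 ± 0.29 in KO NASH. All 5 KO NASH livers, at 3.11 to 3.78, lay above all 5 WT NASH livers, at 0.91 to 2.29. The difference of 1.76 had the smallest p that 5 against 5 livers allow (exact two-sided permutation test, p = 0.00794), and did not pass after adjustment over 8 ratio tests (adjusted p = 0.0635). On chow the difference was 2.39 (exact permutation test, p = 0.0556, adjusted p = 0.222), with KO chow males at 4.83, 5.37 and 8.01 and females at 2.33 and 2.66. For the diet the difference was -0.69 in WT (exact permutation test, p = 0.135) and -1.32 in KO (exact permutation test, p = 0.23).

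**Figure D3:**
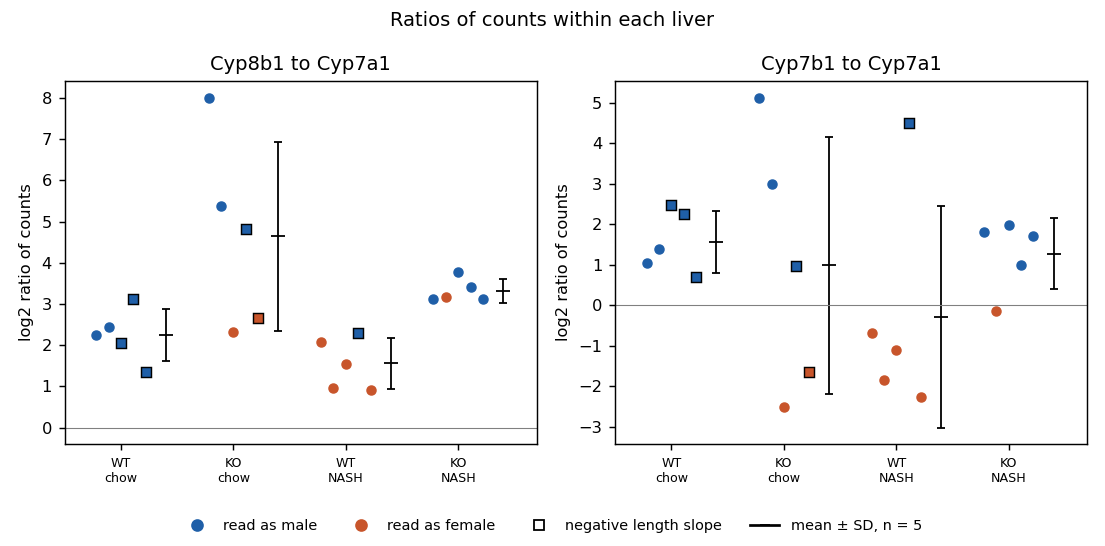
Log2 ratio of counts (vertical axis) of Cyp8b1 to Cyp7a1 and of Cyp7b1 to Cyp7a1 in each liver, by group, with colours for the sex read from the counts, squares for libraries of negative length slope and bars for mean ± SD of 5. For Cyp8b1 to Cyp7a1, KO NASH livers (3.11 to 3.78) lie above WT NASH livers (0.91 to 2.29). For Cyp7b1 to Cyp7a1, every liver read as female lies below 0 and every liver read as male above 0.

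In the alternative pathway, Cyp27a1 (chr1:74713574-74737892, plus strand, GRCm38), a mitochondrial enzyme that hydroxylates the sterol side chain, was lower in KO liver on both diets. On chow WT livers had 372, 375, 331, 238 and 344 CPM and KO livers 181, 152, 178, 237 and 115 CPM. On the NASH diet WT livers had 386, 293, 358, 325 and 378 CPM and KO livers 173, 159.7, 219, 245 and 155 CPM. The groups did not overlap on either diet, although on chow the gap between the lowest WT and the highest KO liver was only 238 against 237 CPM. Cyp27a1 fell 1.93-fold on chow (log2 fold change -0.95, SE 0.207, adjusted p = 0.0116 by edgeR) and 1.83-fold on the NASH diet (log2 fold change -0.87, SE 0.207, adjusted p = 0.0126 by edgeR). The diet itself gave 0.07 (SE 0.205, 95% interval -0.36 to 0.5) in WT and 0.14 (SE 0.205, 95% interval -0.29 to 0.57) in KO. The calls were lost in males alone, at -0.8 on chow and -0.69 on the NASH diet, and the chow call also with only the WT chow and KO chow libraries in the fit. No library left out in turn ended either call.

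Cyp7b1 (chr3:18071950-18243338, minus strand, GRCm38), the oxysterol 7-alpha-hydroxylase, is known to be higher in male than in female mouse liver. WT chow livers, all male, had 267, 304, 934, 483 and 472 CPM, and WT NASH livers 42.2, 35.8, 32.5, 1051 and 24.7 CPM. KO chow livers had 109.8, 204, 27.8, 69.2 and 32.0 CPM, and KO NASH livers 129, 37.4, 310.5, 115 and 124 CPM. All 7 livers read as female were at 24.7 to 42.2 CPM, and all 13 read as male at 69.2 CPM or above. KO chow lay below WT chow without overlap, yet the test did not pass (log2 fold change -2.47, SE 0.931, adjusted p = 0.133 by edgeR).

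Among males alone, Cyp7b1 had a log2 fold change of -1.93 on chow and was called (adjusted p = 0.0373 by edgeR). With NASH feeding the 4 KO males could be set only against WT NASH replicate 4, at -2.6, and the adjusted p of 0.0174 by edgeR takes the spread of that arm from the other groups. Over all alternatives the adjusted p ran from 0.00777 to 0.31 on chow and from 0.0174 to 0.802 on the NASH diet. With all libraries the NASH value was -0.73 (SE 0.887, adjusted p = 0.652 by edgeR). Without WT NASH replicate 4 it was 2.08 and was called, so that its direction rests on that library. Without the same library the diet value in WT moved from -1.05 to -3.88 and was called, and the knockout value on chow stayed at -2.48 and was called. The log2 ratio of Cyp7b1 to Cyp7a1 was 0.69 to 5.13 in the 13 males and -2.52 to -0.15 in the 7 females, and none of its 4 comparisons passed (exact permutation tests, p = 0.198 to 0.833).

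Baat (chr4:49489422-49506557, minus strand, GRCm38), the conjugating enzyme, was at 538 ± 280 CPM (SD, n = 5) in WT chow and 224 ± 83.6 CPM in KO chow. In NASH livers the mean was 383 ± 286 CPM (WT) and 182 ± 30.4 CPM (KO). The groups overlapped. Its log2 fold change was -1.26 (SE 0.401, adjusted p = 0.0709 by edgeR) on chow and -1.08 (SE 0.399, adjusted p = 0.0923 by edgeR) on the NASH diet. Its level moved with the length slope: the WT chow livers of negative slope were at 589.5 to 953 CPM and the other 2 at 272 and 284 CPM. In WT NASH, 892 CPM were found in replicate 4, against 206 to 285 CPM in the rest. The chow value was called in 8 of 33 alternatives, among them without WT chow replicate 2 (-1.43), without WT NASH replicate 4 (-1.27), without KO chow replicate 5 (-1.44) and with the slope as a term (-0.86). The NASH value was called in 4 of 33 alternatives and its size moved widely: -0.77 with sex and slope, -0.59 with limma voom, -0.5 without the 6 libraries of negative slope and -2.25 in males alone. Without WT NASH replicate 4 it was -0.5 and was not called. Without WT NASH replicate 4 the diet value in WT was -1.09, in place of -0.49, and was called.

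Slc10a1 (chr12:80953183-80968705, minus strand, GRCm38), the sodium-dependent uptake carrier of the sinusoidal membrane, shared the top of the order per transcript length with Cyp8b1 in WT chow, where they overlapped. It was at 1016 ± 324 CPM in WT chow, 625 ± 53.2 CPM in WT NASH, 641 ± 348 CPM in KO chow and 397 ± 108 CPM in KO NASH. All 5 KO NASH livers, at 297 to 552 CPM, lay below all 5 WT NASH livers, at 568 to 708 CPM. The log2 fold changes were -0.67 and -0.65 for the knockout on chow and the NASH diet, and -0.70 and -0.69 for the diet in WT and KO. None passed (adjusted p = 0.205 to 0.266 by edgeR). The chow value was called with limma voom (-1.46) and with sex and slope (-0.75). The NASH value was called with limma voom (-0.67) and with only the 2 groups in the fit (-0.66), and it was -0.07 and not called with sex and slope. The diet value in WT was called with limma voom (-0.83). KO chow males were at 260 to 736 CPM and females at 710 and 1138 CPM.

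Abcb11 (chr2:69238282-69342616, minus strand, GRCm38), the bile salt export pump of the canalicular membrane, fell in KO liver on both diets. On chow WT livers had 445, 367, 501, 264 and 281 CPM and KO livers 82.1, 47.2, 192, 166 and 182 CPM. On the NASH diet WT livers had 869, 621, 737, 594 and 688 CPM and KO livers 241, 291, 318, 397 and 230.3 CPM. KO and WT did not overlap on either diet, and the NASH livers lay above the chow livers of the same genotype without overlap in both genotypes.

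Abcb11 was 2.78-fold lower in KO on chow (log2 fold change -1.47, SE 0.315, adjusted p = 0.00946 by edgeR) and 2.38-fold lower on the NASH diet (log2 fold change -1.25, SE 0.313, adjusted p = 0.0171 by edgeR). In KO liver the NASH diet raised it 2.21-fold (log2 fold change 1.14, SE 0.312, adjusted p = 0.0484 by edgeR). In WT liver the diet value was 0.92 (SE 0.311, adjusted p = 0.0858 by edgeR) and missed the threshold. It was called in 4 of 33 alternatives, at 0.91 with DESeq2, 0.86 with limma voom, 0.98 with the slope as a term and 0.92 without KO chow replicate 2, and it was lowest with sex as a term, at 0.52. The chow call held in 32 of 33 alternatives. It was lost with only the 2 groups in the fit (adjusted p = 0.0808 by edgeR, over a range of 0.000159 to 0.0808). The knockout call on the NASH diet was lost with sex as a term (-0.94), with sex and slope (-0.83), in males alone (-0.97), with KO NASH replicates 1 and 5 summed, and without KO NASH replicate 1 (-1.17) or 5 (-1.16). The diet call in KO held in 12 of 33 alternatives. It was lost with RLE size factors, with no filter, with only the 2 groups in the fit, in males alone and with KO NASH replicates 1 and 5 summed. Without any one of replicates 1 to 3 of WT chow, 1, 2, 3 and 5 of WT NASH, 1, 2, 4 and 5 of KO chow, and 1 to 5 of KO NASH it was lost as well, with log2 values of 0.93 to 1.25.

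Abcb4 (chr5:8893717-8959231, plus strand, GRCm38), the phosphatidylcholine floppase, had higher mean values in KO than in WT. It was at 327 ± 152 CPM in WT chow, 508 ± 138 CPM in KO chow, 263 ± 108 CPM in WT NASH and 486 ± 63.3 CPM in KO NASH. With NASH feeding all 5 KO livers (406 to 569.9 CPM) lay above all 5 WT livers (95.2 to 398 CPM). The log2 fold change was 0.89 (SE 0.335, adjusted p = 0.0984 by edgeR) on the NASH diet and 0.63 (SE 0.334, adjusted p = 0.313 by edgeR) on chow, and neither passed. The NASH value was called in 6 of 33 alternatives: with the slope as a term (0.67), with sex and slope (0.75), without the 6 libraries of negative slope (0.67), with limma voom (0.79), with a block of replicate numbers (1.01) and in males alone (2.44). The diet value in WT was -0.32 and was called with the slope as a term (-0.67). In WT chow the 3 libraries of negative slope were at 164 to 269.7 CPM and the other 2 at 451 and 521 CPM, and Abcb4 has the longest exonic length of the members, 9383 bp.

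Nr0b2 (chr4:133553376-133556536, plus strand, GRCm38), encoding SHP, which represses Cyp7a1 and Cyp8b1, had the largest called fall of the members in the knockout on both diets. WT chow livers had 14.0, 8.56, 40.5, 38.3 and 42.1 CPM, and KO chow livers 1.16, 0.563, 3.96, 3.99 and 9.11 CPM. WT NASH livers had 30.4, 31.2, 26.1, 79.3 and 26.2 CPM, and KO NASH livers 3.16, 16.3, 5.40, 16.9 and 4.26 CPM. On the NASH diet the groups did not overlap, and on chow the highest KO liver stood above the lowest WT liver. The level was 7.69-fold lower on chow (log2 fold change -2.94, SE 0.666, adjusted p = 0.0139 by edgeR) and 4.17-fold lower on the NASH diet (log2 fold change -2.06, SE 0.635, adjusted p = 0.0448 by edgeR).

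The WT chow livers of negative slope had 38.3 to 42.1 CPM of Nr0b2 and the other 2 had 8.56 and 14.0 CPM. Without the 6 libraries of negative slope the chow value was -2.6 and was not called (adjusted p = 0.0549 by edgeR, over a range of 0.000109 to 0.0549), and in the other 32 alternatives it was called. The NASH call held in 19 of 33 alternatives. It was lost with a filter at a mean of 5 CPM (-2.06), with sex as a term (-1.95), with sex and slope (-1.0) and with KO NASH replicates 1 and 5 summed (-1.85). It was also lost without any one of replicates 3 and 5 of WT chow, 2, 4 and 5 of WT NASH, 3 and 4 of KO chow, and 1, 3 and 5 of KO NASH, with log2 values of -2.17 to -1.63. The diet value in WT was 0.43 (SE 0.611, adjusted p = 0.717 by edgeR). In KO it was 1.31 (SE 0.637, adjusted p = 0.23 by edgeR), and it was larger and called in 4 of 33 alternatives: 2.29 with the slope as a term, 2.6 with sex and slope, 2.32 without the 6 libraries of negative slope and 2.56 with limma voom.

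Slc51b (chr9:65412714-65422955, minus strand, GRCm38), a subunit of the exporter on the sinusoidal side, was barely detected. Per library it had 0 to 3 counts in WT chow and 1 to 17 in KO chow, and on the NASH diet 2 to 8 counts in WT livers and 1 to 10 in KO livers. The sums over 5 libraries were 5 and 33 counts on chow and 24 and 26 counts on the NASH diet. The highest levels, 1.18 and 1.03 CPM, were in WT NASH replicate 4 and KO chow replicate 5, both of negative slope. No fold is given at this depth.

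**Figure D4:**
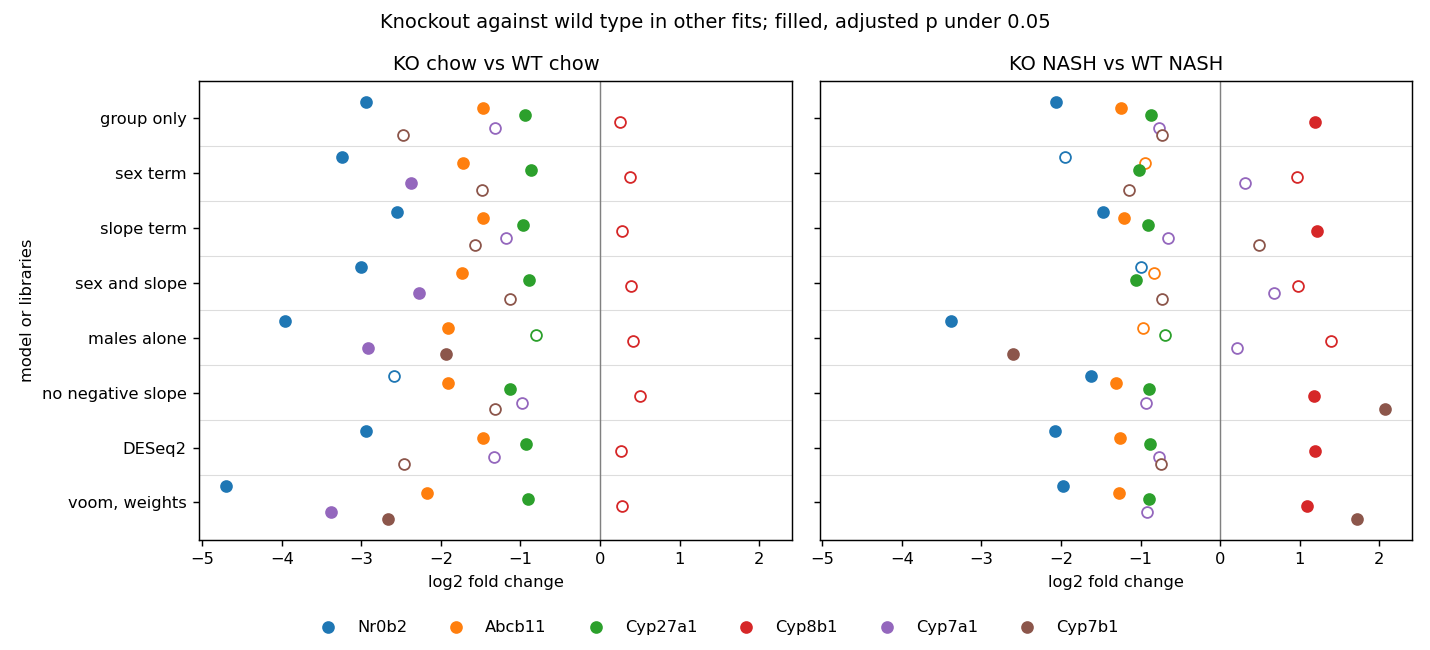
Log2 fold change (horizontal axis) of KO against WT for 6 members, on chow and on the NASH diet, under the model with group only and 7 other fits (rows). Filled points had an adjusted p under 0.05: Abcb11 on chow is filled in all 8 rows, Cyp7a1 on chow in 4, and Cyp7b1 on the NASH diet lies on both sides of 0.

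The interaction, which asks whether the knockout difference depends on the diet (NASH diet minus chow), was called for none of the 9 members by edgeR, where 0.0554% of all genes were called higher and 0.0831% lower. DESeq2 called none (1.08% of all genes) and limma voom 3 (13.5%). An unadjusted p under 0.05 was found for 1191 of 14440 genes and for 1 member, Cyp8b1. Its interaction was 0.94 (SE 0.404, 95% interval 0.10 to 1.78, adjusted p = 0.524 by edgeR). For Abcb11 it was 0.23 (95% interval -0.68 to 1.13), for Cyp27a1 0.07 (95% interval -0.53 to 0.68) and for Nr0b2 0.88 (95% interval -0.95 to 2.71). Cyp7b1 had an interaction of 1.75 (95% interval -0.87 to 4.37) and was called without WT NASH replicate 4, at 4.56.

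The members were ordered by their mean level per transcript length, as a description. In WT chow Slc10a1 came first with 462 ± 147 CPM per kilobase of exon (SD, n = 5), followed by Cyp8b1 with 370 ± 56.6, Baat with 277 ± 144 and Cyp7b1 with 227 ± 122, and each of these overlapped the next. The place of Slc10a1 rests on the 3 libraries of negative slope, at 492 to 656: in replicates 1 and 2 it had 349 and 285 CPM per kilobase and Cyp8b1 had 319 and 326. Cyp27a1 had 153 ± 25.6 and Abcb11 72.2 ± 19.9, and this pair did not overlap. Cyp7a1 (38.8 ± 18.5), Abcb4 (34.9 ± 16.1) and Nr0b2 (25.3 ± 14.2) came last before Slc51b (0.114 ± 0.122). In WT NASH Cyp8b1, with 122 ± 16.5, came below Abcb11 with 136 ± 21.2, and these overlapped. In KO chow and KO NASH Cyp8b1 led with 441 ± 87.8 and 280 ± 168, overlapping Slc10a1 at 291 ± 158 and 181 ± 49.0. Nr0b2 was at 3.32 ± 2.99 in KO chow and 8.13 ± 6.01 in KO NASH.

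Further bile acid genes were read from lists of synthesis, transport and regulation. Of 18 tested synthesis genes, 2 rose and 1 fell in KO chow, and 3 rose and 3 fell in KO NASH, each against WT. Of all genes, 3.03% were higher and 2.49% lower on chow, and 4.9% and 4.74% on the NASH diet. Akr1c6, a hydroxysteroid dehydrogenase of a multigene family, fell on both diets (log2 fold change -2.73, adjusted p = 0.00771 by edgeR on chow and -3.23, adjusted p = 0.00172 by edgeR on the NASH diet). Hsd17b4, the peroxisomal enzyme of side-chain oxidation, rose on both (0.75, adjusted p = 0.0446 by edgeR on chow and 0.85, adjusted p = 0.0191 by edgeR on the NASH diet), and on chow so did Cyp39a1, the 24-hydroxycholesterol 7-alpha-hydroxylase (1.44, adjusted p = 0.0219 by edgeR). Acaa1a, a peroxisomal thiolase (1.26, adjusted p = 0.0113 by edgeR), and Slc27a2, a peroxisomal acyl-CoA synthetase (0.87, adjusted p = 0.0297 by edgeR), rose on the NASH diet. Akr1d1, the 5-beta-reductase of bile acid synthesis, fell (-1.57, adjusted p = 0.036 by edgeR). Cyp2c70, which makes muricholic acids in the mouse, was at 368 to 3650 CPM in WT NASH and 26.5 to 142 CPM in KO NASH and fell (-3.99, adjusted p = 0.00464 by edgeR). Its highest WT NASH value was that of replicate 4, and the WT NASH median was 597.5 CPM. Cyp2c70 too belongs to a multigene family. Of the chow calls, that of Cyp39a1 was lost in males alone (1.31). Of the NASH calls, those of Akr1d1 (-1.06), Hsd17b4 (0.75) and Slc27a2 (0.86) were lost with sex as a term, while Akr1c6, Cyp2c70 and Acaa1a were called with sex, with the slope and with both.

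The NASH diet in WT raised Cyp2c70 (2.89, adjusted p = 0.0306 by edgeR) and lowered Amacr (-0.82, adjusted p = 0.0314 by edgeR), Slc27a2 (-1.08, adjusted p = 0.0125 by edgeR) and Cyp3a11 (-1.68, adjusted p = 0.0394 by edgeR) among the synthesis genes. With sex as a term Cyp2c70, Amacr and Slc27a2 were not called in this comparison, and Cyp3a11 was not called with the slope as a term (-1.17). In males alone Amacr, Slc27a2 and Cyp3a11 were not called. In KO liver none of the 18 was called for the diet by edgeR. Before adjustment 4 had a p under 0.05, and DESeq2 called 2 and limma voom 6, with 8.18% and 12.7% of all genes called. Of all 14440 genes 3199 had such an unadjusted p.

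Of 14 tested transport genes, 2 fell in KO on each diet, none rose, and they were the same genes. Of all genes, 2.49% were called lower on chow and 4.74% on the NASH diet. In other fits to KO NASH against WT NASH 1 transport gene was called higher with the slope or with both terms. Without the 6 libraries of negative slope there were 2, and these fits called 3 to 4 lower. On chow 1 was higher with sex and slope, and 1 to 4 were lower. In either direction the NASH fits called 16.5% of all genes with the slope, 10.4% with both terms and 20.3% without the 6 libraries. The chow fits called 5.84% with sex, 11.5% with the slope and 13.8% with both terms. In males alone the chow share was 6.23%, and without the 6 libraries 5.33%. Slc10a2, the apical bile acid carrier of ileum and bile ducts, was at 18.0 to 186 CPM in WT chow and 1.02 to 15.6 CPM in KO chow (log2 fold change -3.68, SE 0.848, adjusted p = 0.0158 by edgeR), and at 42.7 to 496 against 10.7 to 26.7 CPM on the NASH diet (-3.33, SE 0.827, adjusted p = 0.0162 by edgeR). The highest WT value on each diet was that of replicate 4, a library of negative slope, and the WT medians were 46.7 CPM on chow and 67.0 CPM on the NASH diet. Atp8b1, the canalicular phosphatidylserine flippase, fell on chow (-0.93, SE 0.17, adjusted p = 0.00347 by edgeR) and on the NASH diet (-0.61, SE 0.168, adjusted p = 0.0268 by edgeR). With sex as a term the chow call of Slc10a2 (-3.34) and the NASH call of Atp8b1 (-0.55) were lost. Beside Slc10a2, the cholangiocyte markers summed to 57.9 to 273 CPM in WT chow and 38.1 to 266 CPM in KO chow, and to 50.5 to 537 and 58.7 to 270.2 CPM on the NASH diet. None of 7 tested cholangiocyte markers was called for the knockout by edgeR. At an unadjusted p under 0.05 there was 1 on chow and 0 on the NASH diet, DESeq2 called 0 on both, and limma voom called 2 on chow and 1 on the NASH diet. Of all 14440 genes, 2795 and 3701 had such a p, DESeq2 called 8.07% and 12.9%, and limma voom 40.4% and 23.8%. None of the 8 cholangiocyte markers was at 0 in any group. The 4 gallbladder and pancreas markers summed to 6.99 to 24.6 CPM in WT chow and 2.61 to 10.45 CPM in KO chow. On the NASH diet they summed to 11.7 to 108 CPM in WT and 3.33 to 4.53 CPM in KO. Only 1 of them was tested. It was called lower in KO on the NASH diet (-3.15), and on chow (-1.69) by DESeq2 and limma voom but not by edgeR. The part of either list in the result was not tested. Abcg5, a subunit of the canalicular sterol exporter, was the single transport gene called for the diet in KO, and it fell (-1.47, SE 0.211, adjusted p = 0.00191 by edgeR).

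Of 16 tested regulators, none was called for the knockout on either diet by edgeR. At an unadjusted p under 0.05 there were 1 on chow and 2 on the NASH diet, DESeq2 called 0 and 1, and limma voom 3 and 2. Of all 14440 genes, 2795 and 3701 had such a p, DESeq2 called 8.07% and 12.9%, and limma voom 40.4% and 23.8%. The edgeR fits that took up the slope called regulators lower in KO. There were 3 on chow and 4 on the NASH diet with the slope as a term, and 4 and 1 with sex and slope. Without the 6 libraries of negative slope there were 1 and 5. In either direction these fits called 11.5% and 16.5% of all genes with the slope and 13.8% and 10.4% with both terms. Without the 6 libraries the shares were 5.33% and 20.3%. With sex as a term there were again 0 and 0, where 5.84% and 4.33% of all genes were called. In males alone 0 were called on chow (6.23% of all genes), and on the NASH diet that fit rests on 1 WT library. FXR itself (Nr1h4) was at 185 ± 90.3 CPM in WT chow, 173 ± 50.4 CPM in KO chow, 103 ± 15.0 CPM in WT NASH and 118 ± 25.9 CPM in KO NASH, and is named outside the rule for its place in the background. Fgfr4, the hepatocyte receptor for the intestinal hormone FGF15, rose with the diet in WT (1.29, SE 0.347, adjusted p = 0.0334 by edgeR), which was not called with sex as a term (0.79), with sex and slope (0.65) or in males alone (0.19).

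Genes whose level followed a member over the 20 livers were ranked by Pearson's r of log2 CPM among 9009 genes, as a description in which the livers share groups, sex and slope. Cyp7b1 was followed by Mup20 (r = 0.962), Mup7 (r = 0.961) and Mup1 (r = 0.959), which encode major urinary proteins, a multigene family of male liver whose counts are uncertain. Nr0b2 was followed by Slc22a30 (r = 0.949), Leap2 (r = 0.943) and Akr1c6 (r = 0.936). For Cyp8b1 they were Cyp4a32 (r = 0.901), Lpcat3 (r = 0.885) and Ephx2 (r = 0.885), and for Cyp7a1 Stard3nl (r = 0.857), Slc16a12 (r = 0.829) and Apol9a (r = 0.794). Slc51b was too low to be ranked.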

How the data were processed

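The deposited table held whole-number counts per gene symbol for 20 libraries, and these raw counts were used as deposited. Reads were aligned by the authors with HISAT2 2.0.4 to GRCm38, per the submitters' processing notes. The sources used here do not give the counting program, the annotation or the use of strand. Columns marked HFD were taken as the NASH groups, since all others name chow.

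Tests used edgeR 4.0.16 (R 4.3.3): TMM scaling, filterByExpr (minimum count 10; 14440 genes kept), 1 quasi-likelihood model with 4 group coefficients, and Benjamini-Hochberg adjustment over all genes tested, called at an adjusted p under 0.05. Intervals are 95%. Count ratios used a pseudocount of 0.5 and an exact permutation test. A library was read as male when 4 Y-linked genes summed to 100 counts or more. The length slope was fitted over 9524 genes to deviations from the mean log2 CPM of each gene, without TMM scaling. Exonic lengths came from GENCODE M21, which also gave gene positions (GRCm38). Promoters came from RefSeq. The fit was tested on simulated counts.

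The members, the lists and the rule for named genes (all members, Pck1, up to 3 called genes per direction, list and comparison, and the 3 genes most correlated with Cyp7a1, Cyp8b1, Cyp7b1 and Nr0b2) were chosen with earlier results of these data known. Clock genes were named because they were called. Alternatives were RLE size factors, 2 other filters, DESeq2 1.42.0, limma 3.58.1 voom with quality weights, the block of replicate numbers, a fit to just the pair of groups compared, sex, the slope or both as terms, males alone, KO NASH replicates 1 and 5 summed, and each library left out. Leaving out the 6 libraries of negative slope was added after seeing the data. Depths ranged from 9958935 to 20601955 counts, without molecular identifiers.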

Additional observations from a re-analysis of the deposited data

Results flagged for a closer look

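All 5 values that stood apart from their group belonged to WT NASH replicate 4, read as the only male of that group. Against the other 4 livers it was far higher for Cyp7b1 (1051 CPM, the others 24.7 to 42.2), Baat (892 CPM, the others 206 to 285), Nr0b2 (79.3 CPM, the others 26.1 to 31.2) and Slc51b (1.18 CPM, the others 0.119 to 0.387), and for the log2 ratio of Cyp7b1 to Cyp7a1 (4.50, the others -2.27 to -0.70). Dixon's test for an extreme value was applied to 48 groups of 5, and chance alone marks about 1 in 20. The library also had the lowest total (9958935 counts), the lowest TMM factor (0.683) and a negative length slope (-0.26). The part of each in these values was not tested.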

How the results depend on the processing

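The number of members called moved with the fit, as did the percentage of all genes called, given in brackets. In WT NASH against WT chow it was 1 (5.93%), and 2 with DESeq2 (8.76%), 5 with limma voom (40.6%), 0 with sex as a term (1.11%), 3 with the slope (12.3%), 0 in males alone (0.596%) and 1 to 3 with each library left out in turn. For the knockout on chow it was 3 (5.53%), and 8 with voom (40.4%), 6 with sex and slope (13.8%), and 3 to 5 with libraries left out. It was 2 with only the 2 groups in the fit (2.2%) and 2 without the negative-slope libraries (5.33%). On the NASH diet it was 4 (9.65%), and 8 with voom (23.8%), 1 with sex (4.33%), 2 with KO NASH replicates 1 and 5 summed (5.23%), 7 without the negative-slope libraries (20.3%) and 2 to 4 with libraries left out. For the diet in KO it was 1 (3.29%), and 2 with voom (12.7%), the slope (6.36%), both terms (9.34%) or without the negative-slope libraries (7.69%), 0 with RLE (3.37%), no filter (0.96%), only 2 groups (2.33%), males alone (0.37%) or the summed replicates (1.23%), and 0 to 1 with libraries left out. The interaction went from 0 (0.139%) to 3 with voom (13.5%), and 0 to 1 with libraries left out. A replicate block gave counts of 1 (7.11%), 4 (6.11%), 5 (10.1%), 1 (3.7%) and 0 (0.0277%). With libraries left out the percentages, in the same order, were 2.82 to 11.7, 2.37 to 8.32, 4.89 to 11.8, 1.01 to 5.4 and 0.0272 to 0.981. The 3 members called in WT NASH against WT chow came without WT NASH replicate 4, with 11.7% of all genes. Same-numbered libraries correlated at -0.41 to 0.52 in their deviations, and 5 of 20 pairs correlated best with their own number, so the numbers were not used to pair samples. Cyp7b1 in KO NASH against WT NASH reversed from -0.73 to 1.73 with voom, 2.08 without the negative-slope libraries and 2.08 without WT NASH replicate 4, each called, and ranged from -1.22 to 2.08 with each library left out. A further 46 of 1640 values of single genes changed sign without being called in either fit. Males alone moved the log2 ratio of Cyp8b1 to Cyp7a1 for the diet in WT to 0.04, and that of Cyp7b1 to Cyp7a1 to 2.93 and -1.41 for the diet in WT and KO, and to 1.47 and -2.87 for the knockout on chow and the NASH diet. Without the negative-slope libraries the last ratio was 0.67 for the knockout on chow and -0.61 for the diet in KO. With each library left out, Cyp8b1 to Cyp7a1 ranged from -0.92 to -0.47 (diet in WT), 1.55 to 2.97 (knockout on chow), 1.60 to 1.95 (knockout on the NASH diet) and -1.90 to -0.48 (diet in KO), and Cyp7b1 to Cyp7a1 from -3.04 to -1.35, -1.61 to 0.30, 1.05 to 2.74 and -0.60 to 1.32. The ends 1.95, -3.04 and 2.74 came without WT NASH replicate 4 and were the ratios that then passed. Causes were not tested. At this depth Slc51b was too low to be tested, and the tested member of lowest mean CPM, Nr0b2, had 14 to 607 counts per library.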
